A study of Mus musculus with 8 samples.

Results

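Interferon beta, the receptor it binds and the Jak kinases that carry its signal were followed across every array of the series by their RNA. All probe sets annotated to only Ifnb1, Ifnar1, Ifnar2, Jak1, Jak2 or Tyk2 were taken, which gave 10 of the 22626 non-control probe sets and 6 of the 12393 genes on the array. Ifnb1, Ifnar1 and Tyk2 have 1 probe set each, Ifnar2 and Jak2 have 2 each, and Jak1 has 3. A probe set is a group of short oligonucleotides on an Affymetrix array that together report 1 transcript.

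The cells were mouse embryonic fibroblasts, mesenchymal cells grown out of embryos, of mixed C57BL/6 x 129Ola background. They were WT (Tbk1+/+ Ikbke+/+), Tbk1-/- Ikbke+/+ (written Tbk1-/-), Tbk1+/+ Ikbke-/- (written Ikbke-/-) or Tbk1-/- Ikbke-/-. RNA was taken 4 h after mock transfection or after transfection of B-DNA, a synthetic right-handed double helix in which A and T alternate. There is 1 array for each of the 8 combinations of genotype and treatment, so a single B-DNA over mock ratio has no replicate check and gets no p-value. For the embryos' age, the cells' passage and any pooling, nothing is given in the sources used here.

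Interferon beta is the first type I interferon that fibroblasts release when they sense foreign nucleic acid, and Tbk1 and Ikbke are related kinases that activate the transcription factors which switch its gene on. The secreted protein binds a receptor of 2 chains, Ifnar1 and Ifnar2, on the same cell or its neighbours. Tyk2 rests on the Ifnar1 chain and Jak1 on the Ifnar2 chain, and together they phosphorylate Stat2, which acts with Irf9 in turning on interferon-stimulated genes. Jak2 is the sister kinase used by the interferon gamma receptor and by many hormone and growth factor receptors, and it is not a standard part of the type I receptor.

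The DNA just upstream of the Ifnb1 and Jak2 start sites is shown first, because these are the ligand gene that Tbk1 acts on and the kinase gene whose probe sets differed most between arrays below. The sequences are the 250 bases before the RefSeq start of each gene in the GRCm38.p6 build, read 5′ to 3′ on the gene's own strand. Capitals mark matches to 4 motifs searched on both strands, and none of the matches within these windows overlaps another. The motifs were an IRF element (AANNGAAA, the core that interferon regulatory factors bind), an NF-kB site (GGAAATTCC), a GAS element (TTCNNNGAA, the site of Stat dimers) and a TATA box (TATAAA). The Ifnb1 window lies at chr4:88522795-88523044 on the minus strand, and the Jak2 window at chr19:29251553-29251802 on the plus strand.
Ifnb1: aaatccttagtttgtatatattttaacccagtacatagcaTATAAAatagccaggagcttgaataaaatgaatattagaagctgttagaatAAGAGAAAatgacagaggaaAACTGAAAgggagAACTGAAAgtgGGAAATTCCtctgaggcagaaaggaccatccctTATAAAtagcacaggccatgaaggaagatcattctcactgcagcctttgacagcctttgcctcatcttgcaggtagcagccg
Jak2: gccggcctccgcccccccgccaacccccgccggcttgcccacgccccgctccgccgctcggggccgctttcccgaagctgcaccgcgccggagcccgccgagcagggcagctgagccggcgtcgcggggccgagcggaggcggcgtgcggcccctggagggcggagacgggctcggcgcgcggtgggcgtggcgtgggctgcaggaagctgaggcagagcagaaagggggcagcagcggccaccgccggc
The Ifnb1 window held 3 IRF elements, which start 159, 139 and 126 bases before the start site, followed by an NF-kB site from 115 to 107 bases before it. Of the 32851 windows of 300 bases around RefSeq starts (250 before and 50 after), 23.9% held an IRF element and 1.12% held 3 or more. The NF-kB letters occurred in 104 windows (0.317%), and both motifs occurred together in 32 (0.0974%). The NF-kB motif was 1 exact word of 9 letters, so sites spelled otherwise were not counted in any window. Its share is that of these letters and not of NF-kB sites. A TATA box, present in 13.6% of all windows, was found 210 and 82 bases before the Ifnb1 start.

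The Jak2 window held none of the 4 motifs, nor did those of Jak1 and Tyk2. Ifnar1 and Ifnar2 each held 1 GAS element, as did 8.30% of all windows. It begins 5 bases before the Ifnar1 start and 214 bases before that of Ifnar2. These matches describe letters only, and no binding was measured here.

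**Figure D1:**
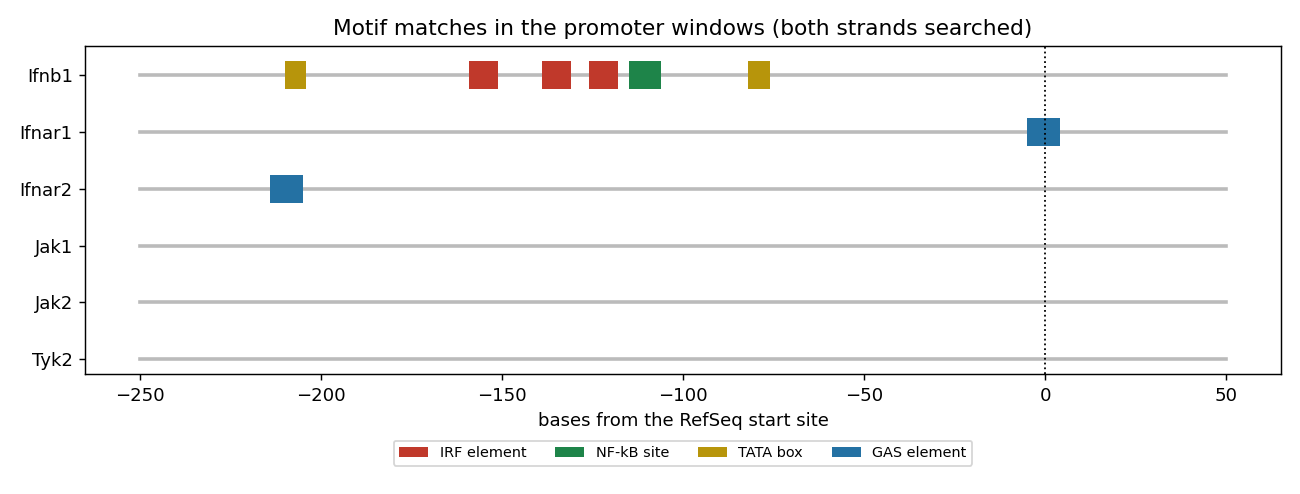
Motif matches in the 300-base window around the RefSeq start of each gene. The horizontal axis is the distance in bases from the start site (dotted line), each grey line is 1 gene's window, and coloured blocks are matches on either strand. The Ifnb1 window carries 3 IRF elements, 1 NF-kB site and 2 TATA boxes, while the Jak1, Jak2 and Tyk2 windows carry none.

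Several facts of the whole series bear on these genes. The deposited signal had 2% trimmed means from 140 to 255 (139.8 on the Tbk1-/- Ikbke-/- mock array), and a factor per array brought this mean to 500. All signals quoted are on that scale, and those under 122, the 40th percentile, were raised to this floor before log2 ratios were taken. The brighter Tbk1 probe set read 472 to 989 in Tbk1+/+ cells and 226 to 389.6 in Tbk1-/- cells, while the only Ikbke probe set stayed under the floor throughout, so it cannot check that label. Of 13 fibroblast markers on the array, 12 or 13 reached 244 on every array. Of 18 macrophage and other leukocyte markers, 15 reached 244 on the WT mock array and 11 on the WT B-DNA array, against 1 or 2 on each other array. Their summed signal was 21931 and 6032 on the WT arrays and 1512 to 1909 elsewhere, where 12 or 13 of the 18 lay under the floor, so the WT values below come from cultures that stand apart. Xist, made from the inactive X chromosome of female cells, read 2950.1 to 3766 on the 4 Ikbke+/+ arrays and 138 to 209 on the 4 Ikbke-/- arrays, so Ikbke genotype and sex cannot be told apart.

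Ifnb1 (chr4:88522025-88522794 in GRCm38.p6) encodes interferon beta itself. Its probe set read 99.5 on the WT mock array and 221 on the WT B-DNA array. The mock and B-DNA values were 55.8 and 194 (Ikbke-/-), 106 and 75.1 (Tbk1-/-) and 83.3 and 92.0 (Tbk1-/- Ikbke-/-). The WT and Ikbke-/- B-DNA arrays were the only ones at or above the floor, and none reached 244, the level of 2 times the floor at which a gene could be counted as 2-fold different. Among the 6 arrays under the floor no order was read. Against the floor, the signal was at least 1.81-fold higher after B-DNA in WT cells and at least 1.59-fold higher in Ikbke-/- cells. In the Tbk1-/- and Tbk1-/- Ikbke-/- pairs both arrays lay under the floor, so neither ratio was measured. In bulk RNA, fewer producing cells and less RNA per cell cannot be told apart.

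Both receptor genes lie on chromosome 16. Ifnar1 (chr16:91485032-91510523), the chain that carries Tyk2, was above the floor on all 8 arrays and spanned 515 to 761. It read 559 and 761 (WT), 515 and 588 (Tbk1-/-), 619 and 703 (Ikbke-/-) and 516 and 570.1 (Tbk1-/- Ikbke-/-), here and below with the mock array first and the B-DNA array second. The B-DNA array was the higher in each of the 4 pairs, with log2 ratios of 0.45, 0.19, 0.18 and 0.14 in that order. The WT ratio was 0.043 without further scaling, and the Ikbke-/- ratio turned to -0.05. The mock and B-DNA signals overlap across genotypes, since the Ikbke-/- mock array lay above both B-DNA arrays of the Tbk1-/- genotypes.

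Ifnar2 (chr16:91372783-91405589), the chain that carries Jak1, has a bright and a dim probe set, and they did not give 1 pattern. The bright one, 1451462_a_at, read 758 and 897 (WT), 848 and 595 (Tbk1-/-), 979 and 867 (Ikbke-/-) and 877 and 841 (Tbk1-/- Ikbke-/-). Its log2 ratio was 0.24 in WT cells, where B-DNA was the higher, and -0.51, -0.18 and -0.06 in the other genotypes, where mock was the higher. Without further scaling the WT ratio turned to -0.16 and that of Tbk1-/- Ikbke-/- cells to 0.13. The dim one, 1427691_a_at, read 139.6 and 172 (WT), 111 and 129 (Tbk1-/-), 122 and 224 (Ikbke-/-) and 12.9 and 39.6 (Tbk1-/- Ikbke-/-). It lay at or above the floor on 5 of 8 arrays and at 244 on none. Over the 8 arrays the 2 probe sets had a Pearson correlation of 0.13, as a description of arrays that share genotypes.

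Jak1 (chr4:101151974-101265282), the kinase on the Ifnar2 chain, was above the floor with all 3 of its probe sets on all 8 arrays. The brightest, 1433805_at, read 2428 and 2750.2 (WT), 2234 and 2556 (Tbk1-/-), 3094 and 3177 (Ikbke-/-) and 2092 and 1750.2 (Tbk1-/- Ikbke-/-). Its 4 log2 ratios stayed between -0.26 and 0.19, and without further scaling those of WT and Ikbke-/- cells turned to -0.22 and -0.19. The 2 Ikbke-/- arrays were the highest, in the deposited signal too.

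The other Jak1 probe sets gave their highest scaled signal on the WT B-DNA array. This rank was lost in the deposited signal, where the Tbk1-/- mock array was the highest for 1433803_at (925.7, against 679.5 on the WT B-DNA array) and the Ikbke-/- mock array for 1433804_at (196.7, against 184.5). Probe set 1433803_at read 1276 and 1897 (WT), 1815 and 1507 (Tbk1-/-), 1822 and 1703 (Ikbke-/-) and 1143 and 799.6 (Tbk1-/- Ikbke-/-). Its log2 ratio was 0.57 in WT cells and -0.27, -0.10 and -0.51 in the others. Probe set 1433804_at read 291 and 515 (WT), 234 and 270.5 (Tbk1-/-), 414 and 367 (Ikbke-/-) and 213 and 256 (Tbk1-/- Ikbke-/-), with a WT log2 ratio of 0.83. In Ikbke-/- cells its ratio was -0.18. Without further scaling the WT ratios were 0.17 for 1433803_at and 0.42 for 1433804_at. No Jak1 probe set had a ratio of the same sign in all 4 pairs. On the same WT arrays the summed leukocyte signal went from 21931 to 6032, and its part in the WT Jak1 values was not tested.

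Tyk2 (chr9:21104068-21131393), the kinase on the Ifnar1 chain, was above the floor on all 8 arrays and spanned 359 to 542. It read 459 and 427 (WT), 425 and 417 (Tbk1-/-), 359 and 385 (Ikbke-/-) and 542 and 496 (Tbk1-/- Ikbke-/-). All 4 log2 ratios lay between -0.13 and 0.10. Both Tbk1-/- Ikbke-/- arrays were the highest and both Ikbke-/- arrays the lowest on this scale, but not in the deposited signal, where the Tbk1-/- Ikbke-/- mock array was the lowest (151.5) and the WT mock array the highest (217.4). Unscaled, the ratios were -0.51 (WT), -0.20 (Tbk1-/-), -0.13 (Ikbke-/-) and 0.062 (Tbk1-/- Ikbke-/-), so the signs of the last 2 turned.

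Jak2 (chr19:29251803-29313095) read 316 to 466 on the mock arrays, and both of its probe sets were highest on the WT and Ikbke-/- B-DNA arrays. Probe set 1421065_at read 399 and 1006 (WT), 329 and 489 (Tbk1-/-), 423 and 1072 (Ikbke-/-) and 348 and 387 (Tbk1-/- Ikbke-/-). Probe set 1421066_at read 427 and 1062 (WT), 316 and 373 (Tbk1-/-), 416 and 1291 (Ikbke-/-) and 466 and 439 (Tbk1-/- Ikbke-/-). With each probe set the 2 high arrays read 1006 or more and the other 6 read 489 or less. This split was read off the values, and no share of all probe sets with it is given. The B-DNA over mock ratio was 2.52-fold and 2.49-fold in WT cells and 2.53-fold and 3.11-fold in Ikbke-/- cells. The log2 ratios without Tbk1 were 0.57 and 0.24 (Tbk1-/-) and 0.15 and -0.09 (Tbk1-/- Ikbke-/-), and the last turned to 0.099 without further scaling. Over the 8 arrays the 2 probe sets had a Pearson correlation of 0.94. The summed leukocyte signal, 21931 and 6032 on the WT arrays, was 1512 to 1909 on the others, and its part in the WT Jak2 values was not tested.

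**Figure D2:**
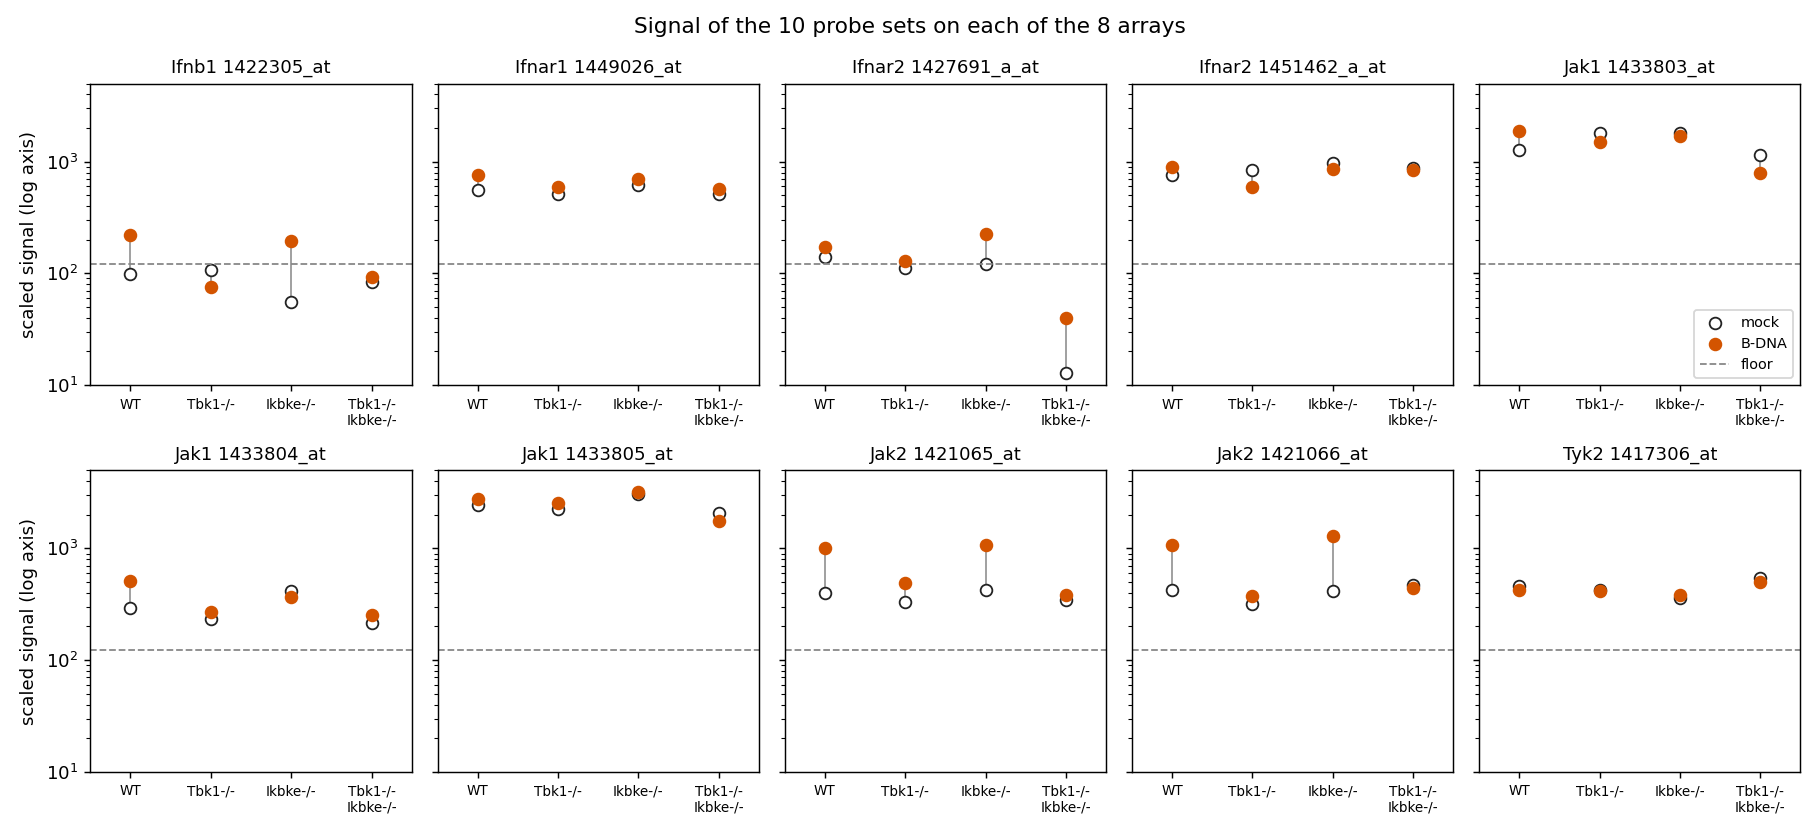
Scaled signal (log axis) of the 10 probe sets on each of the 8 arrays, by genotype, with open circles for mock, filled circles for B-DNA and a dashed line at the floor of 122. Each point is 1 array. Both Jak2 probe sets read highest on the WT and Ikbke-/- B-DNA arrays, and Ifnb1 exceeds the floor only on those same 2. This was read off the values, and no share of all probe sets with such a pattern is given.

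The 2-fold counts were read against the 16406 probe sets with 1 or more arrays at the floor or above. In WT cells 2 of the 10 probe sets, both of Jak2, were 2-fold or more higher after B-DNA, where 3.04% of all probe sets were higher and 1.82% lower. In Ikbke-/- cells the same 2 were higher, where 3.22% were higher and 1.45% lower. In Tbk1-/- cells 0 of 10 differed in either direction, with 0.311% of all probe sets higher and 0.482% lower. In Tbk1-/- Ikbke-/- cells 0 of 10 differed, with 0.652% higher and 0.853% lower. The median log2 ratio of the 10 was 0.51 in WT, 0.13 in Tbk1-/-, 0.14 in Ikbke-/- and -0.03 in Tbk1-/- Ikbke-/- cells. Over all probe sets it was 0.0 in each pair, in part because 2 arrays under the floor give a ratio of exactly 0. At the floor or above on all arrays were 10901 of the 16406 probe sets and 8 of the 10, so the 2 medians are not fully alike. The background shares of 2-fold differences move with the scaling. Without it, 278 probe sets were higher and 1228 lower in WT cells (499 and 299 with it), 46 and 194 in Tbk1-/- cells (51 and 79), 418 and 683 in Ikbke-/- cells (528 and 238), and 200 and 39 in Tbk1-/- Ikbke-/- cells (107 and 140). Scaled to the median, the last pair had 117 higher and 103 lower. Without further scaling the WT log2 ratios of Jak2 were 0.93 and 0.91, under 2-fold, and the median of all probe sets was -0.38. The Ikbke-/- ratios of Jak2 were then 1.11 and 1.40, and still past 2-fold. With the floor at the 30th percentile Ifnb1 was past 2-fold too, at 1.15 in WT and 1.37 in Ikbke-/- cells, which made 3 of 10 probe sets in each.

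**Figure D3:**
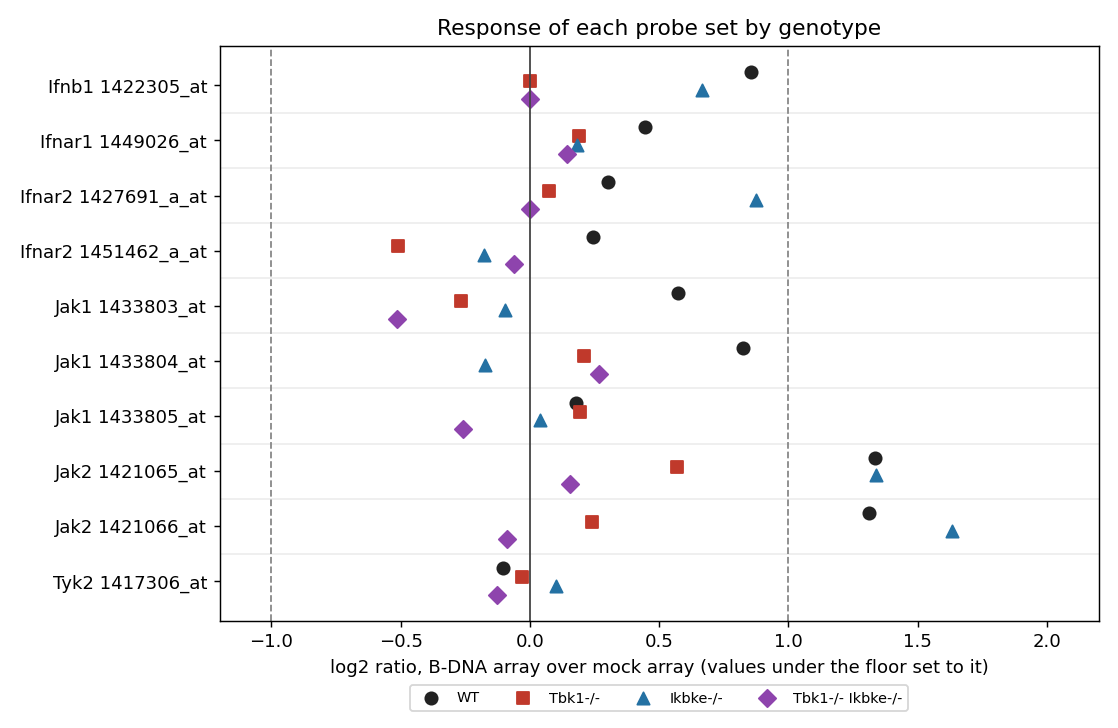
Log2 ratio of the B-DNA array over the mock array for each of the 10 probe sets, 1 symbol per genotype, with dashed lines at 2-fold. Each symbol is 1 pair of arrays with no replicate. With the floor at the 40th percentile only the Jak2 probe sets lie past 2-fold, in WT (1.33 and 1.31) and Ikbke-/- cells (1.34 and 1.63).

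The average response over the 4 pairs was tested with genotype as a block. Limma called 0 of 16406 probe sets after Benjamini-Hochberg adjustment (0.0%), with 1305 at an unadjusted p under 0.05 and a lowest adjusted p of 0.62. Of the 10 probe sets, 2 had an unadjusted p under 0.05. Jak2 1421065_at averaged 0.85 on the log2 scale (SE 0.24, adjusted p = 0.62 by limma), higher after B-DNA in 4 of 4 genotypes. Ifnar1 averaged 0.24 (SE 0.091, adjusted p = 0.62 by limma), also higher in 4 of 4. Without further scaling Ifnar1 averaged 0.085, and its Ikbke-/- ratio was -0.05. No share of all probe sets higher in 4 of 4 is given. Jak2 1421066_at averaged 0.78 (SE 0.33), higher in 3 of 4, and Tyk2 averaged -0.04 (SE 0.083). The labels do not say whether arrays are of separate cultures or embryos. The error in this fit is the spread of the 4 log2 ratios between genotypes, part of which may be technical. A response that differs by genotype adds to this error. For Jak2 1421065_at the residual SD was 0.416, against 0.150 in the fit of Tbk1 dependence below. So 0 calls here do not show that no probe set responded.

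Whether the response depended on Tbk1 was then tested as the difference of log2 ratios, Tbk1-/- genotypes less Tbk1+/+ genotypes. Limma called 270 of 16406 probe sets, 248 of them (1.51%) with a lower ratio without Tbk1 and 22 (0.134%) with a higher one. None of the 10 probe sets was called, and 4 had an unadjusted p under 0.05 (2563 of all probe sets did). Ifnb1 was among these 4, with 6 of its 8 values set to the floor. Jak2 1421066_at came nearest, with mean log2 ratios of 1.47 with Tbk1 and 0.08 without. The difference was -1.40 (SE 0.27, 95% interval -2.04 to -0.76, adjusted p = 0.069 by limma). For Jak2 1421065_at the means were 1.34 and 0.36, and the difference was -0.98 (SE 0.25, 95% interval -1.57 to -0.38, adjusted p = 0.15 by limma). The adjusted p of 1421066_at was 0.019 when probe sets had to reach the floor on all 8 arrays and 0.040 with a variance trend, and it ran up to 0.53 over all alternatives. Leaving out any 1 genotype left no probe set of the array called, and the Jak2 differences then lay between -1.56 and -0.77. Without the WT arrays alone they were -1.56 for 1421066_at and -0.98 for 1421065_at.

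Ifnb1 entered the test only through its 2 B-DNA arrays above the floor, and 6 of its 8 values were the floor itself. Its spread was thus not measured, and no SE or p-value is given for it. The size of its fitted difference, -0.76, is set by the floor. With the floor at the 30th percentile the difference was -1.44, and at the 50th it was -0.12. Jak1 1433803_at had -0.63 (SE 0.25, adjusted p = 0.29 by limma), while the other Jak1 probe sets had -0.09 and -0.14. Without the WT arrays, the difference of 1433803_at was -0.29. The dim Ifnar2 probe set had -0.55, with 3 of its 8 values set to the floor, and the bright one had -0.32. Ifnar1 had -0.15 (95% interval -0.72 to 0.42) and Tyk2 -0.08 (95% interval -0.65 to 0.50), and both turned positive without further scaling. The median of the 10, Ifnb1 and the dim Ifnar2 probe set included, was -0.44, and that of all probe sets was 0.04. Of the 8 member probe sets at the floor or above on all arrays, 3 (Jak1 1433803_at and both of Jak2) had both Tbk1+/+ ratios above both Tbk1-/- ratios, as did 17.4% of all such probe sets. The Jak1 ratios overlapped without further scaling, at -0.3297 in Ikbke-/- and -0.327 in Tbk1-/- Ikbke-/- cells. Ifnb1 and the dim Ifnar2 probe set are left out of this count, because the floor set 1 or both of their Tbk1-/- ratios to 0.

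**Figure D4:**
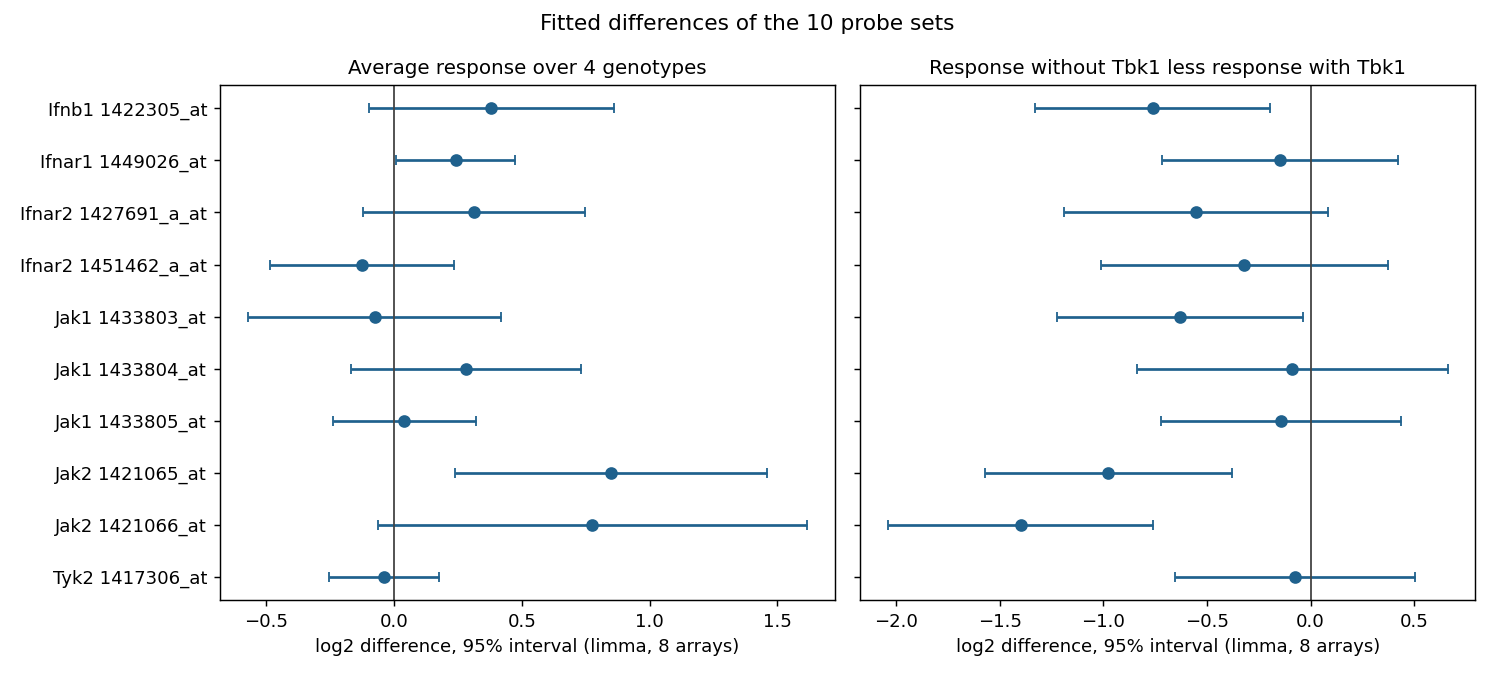
Fitted log2 differences of the 10 probe sets with 95% intervals from limma over all 8 arrays, the average B-DNA response on the left and the response without Tbk1 less that with Tbk1 on the right. Points are estimates and bars are intervals before any adjustment for multiple testing. Jak2 lies farthest from 0 in both panels, at 0.85 and 0.78 on the left and -0.98 and -1.40 on the right.

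Dependence on Ikbke was estimated in the same fit. Limma called 0 of 16406 probe sets (0.0%), with 792 at an unadjusted p under 0.05. None of the 10 had an unadjusted p under 0.05, and their differences ran from -0.47 for Jak1 1433804_at to 0.25 for the dim Ifnar2 probe set. For Jak2 the differences were -0.21 (95% interval -0.80 to 0.39) and 0.00 (95% interval -0.64 to 0.63). These intervals are unadjusted and rest on 1 residual degree of freedom, and Ikbke genotype cannot be told apart from sex here.

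Unstimulated levels were compared on the mock arrays. No member was 2-fold different from the WT mock array in Tbk1-/- cells (5.61% of all probe sets were), in Ikbke-/- cells (5.18%) or in Tbk1-/- Ikbke-/- cells (10.9%). The log2 ratios ran from -0.44 to 0.51, from -0.36 to 0.51 and from -0.45 to 0.24 in that order. Over the 4 mock arrays limma called 0 of 16406 probe sets for Tbk1 (0.0%, 412 at an unadjusted p under 0.05) and 0 for Ikbke (0.0%, 513). The members' differences ran from -0.64 (Jak1 1433804_at) to 0.24 (Tyk2) without Tbk1, and from -0.10 (dim Ifnar2) to 0.26 (Jak2 1421066_at) without Ikbke. None of the 10 had an unadjusted p under 0.05. These fits have 1 residual degree of freedom.

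The rest of the pathway was read from gene lists, with 1 probe set per gene, the brightest. Over all 9626 genes that reached the floor, 166 had a lower ratio without Tbk1 and 16 a higher one by limma, adjusted over all probe sets. All such calls below were lost when any 1 genotype was left out. Of 17 other type I interferon genes, 8 were on the array, 3 reached the floor and none was called. Jak3, the kinase of the common gamma chain, read 240.4 to 359.5 on the 8 arrays and was not called.

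Among the chains of related receptors, 9 of 12 genes were measured and 1 was called. Il13ra1, a chain of the interleukin 13 receptor that binds Tyk2, read 803 and 2067 (WT), 593 and 482 (Tbk1-/-), 798 and 1861 (Ikbke-/-) and 462 and 354 (Tbk1-/- Ikbke-/-). Its difference was -1.63 (SE 0.23, adjusted p = 0.025 by limma). As with Jak2, the WT and Ikbke-/- B-DNA arrays were its highest, which was read off the values with no share of all probe sets beside it.

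Of 6 measured transducers, 2 were called. Stat2 went from 225 to 2007 in WT cells and from 238 to 2282 in Ikbke-/- cells, and read 131 and 202 in Tbk1-/- cells (difference -2.85, SE 0.26, adjusted p = 0.0043 by limma). Irf9, its DNA-binding partner, differed by -1.93 (SE 0.27, adjusted p = 0.024 by limma). Stat3, Stat5a, Stat5b and Stat6 were not called.

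Of 14 measured brakes on the receptor and its kinases, 2 were called. Usp18, a protease that binds Ifnar2 and displaces Jak1, went from 239.5 to 8266 (WT) and from 178 to 12216 (Ikbke-/-), and lay under the floor on all 4 Tbk1-/- arrays. Its ratios without Tbk1 were thus not measured but set to 0 by the floor, and no size of its difference is given. Socs1, an inhibitor of Jak kinases, went from 252 to 2198 and from 200.1 to 2216 in the same pairs (difference -3.11, SE 0.29, adjusted p = 0.0042 by limma). It read 150 and 203 in Tbk1-/- cells and 1 of its 8 values was under the floor. Of 9 measured factors that act at the Ifnb1 promoter, Irf7 (-4.80) and Irf2 were called, the latter with all 4 Tbk1-/- arrays under the floor and so no measured ratio without Tbk1. Irf3 (-0.16), the factor that Tbk1 phosphorylates, was not.

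Downstream, 38 of 39 measured interferon-stimulated genes were called with a lower ratio without Tbk1, with a median difference of -4.42. Of all 9626 genes that reached the floor, 166 were so called. The floor bears on these values. Of the 39, 8 reached it on only 2 of 8 arrays, those of WT and Ikbke-/- cells after B-DNA. These 8 thus entered the test only through the arrays where they were high. In all, 11 lay under it on all 4 Tbk1-/- arrays, so that their ratios there were set to 0, and 12 stayed at or above it on all 8. The median is the value of Gbp3, which has 6 arrays under the floor, so it is no measured size. In WT cells 38 of 39 were 2-fold or more higher after B-DNA, in Ikbke-/- cells 38, in Tbk1-/- cells 1 and in Tbk1-/- Ikbke-/- cells 1, while 1 was lower there. Of all 9626 genes, 315, 342, 28 and 52 were higher in the same order, and 72 were lower in Tbk1-/- Ikbke-/- cells. For Ifih1, an RNA sensor measured above the floor throughout, the difference was -6.05 (SE 0.30, adjusted p = 4.8e-04 by limma). Rsad2 had a difference of -6.79, with 1 of 8 arrays under the floor, which sets part of this size. Ifit2 and Ifit3 were called too, with 5 and 2 of 8 arrays under the floor. Both arrays of the Tbk1-/- pair were among these, so that ratio was set to 0 and no size is given for either gene. Stat2, Irf7 and Usp18 are on this list as well as on their own.

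**Figure D5:**
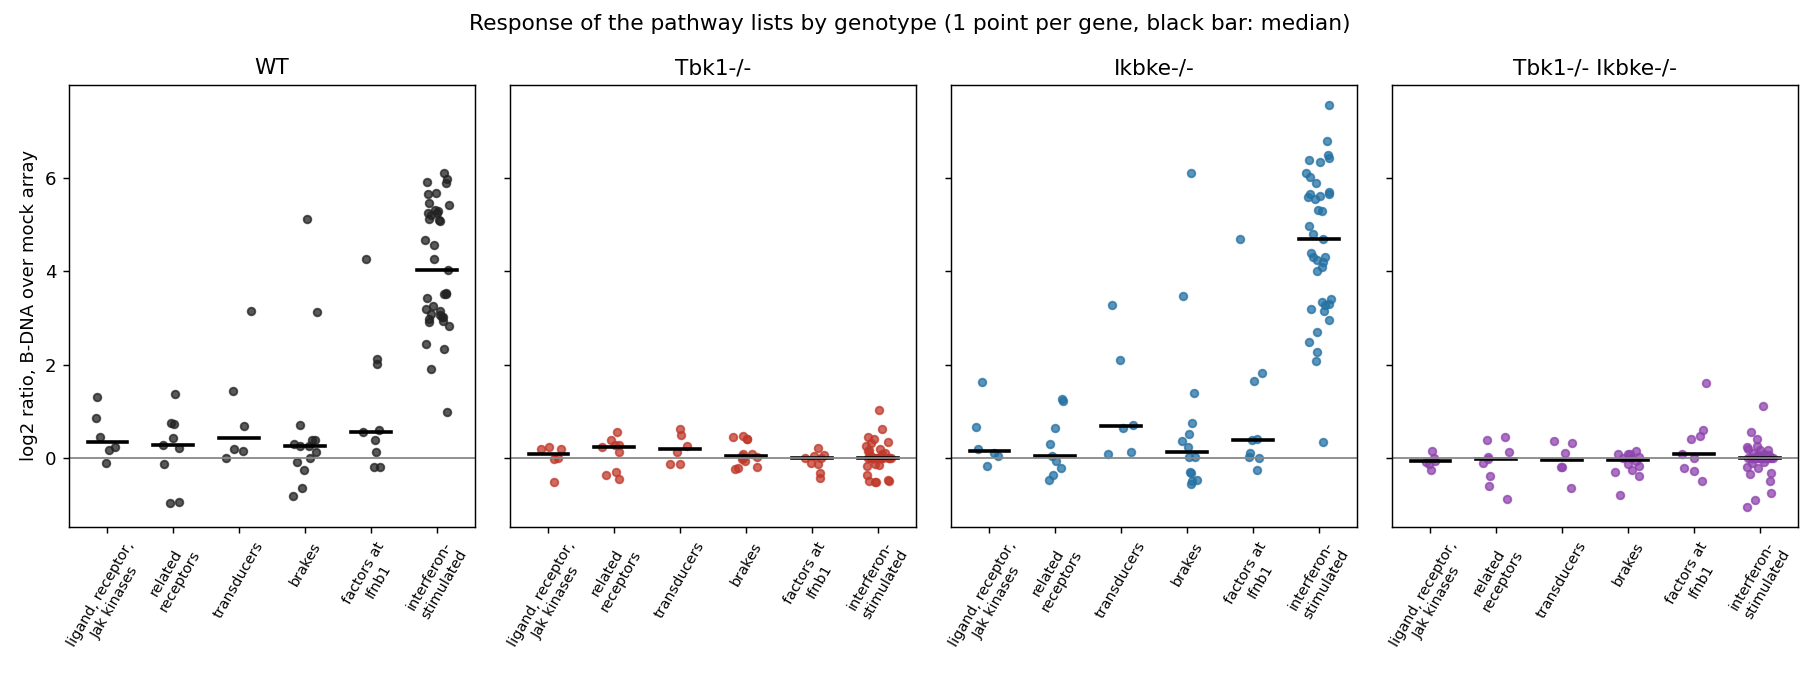
Log2 ratio of the B-DNA array over the mock array for the 6 member genes and 5 pathway lists, in 1 panel per genotype, with 1 point per gene (its brightest probe set) and a black bar at the median. Points are spread sideways at random. The median of interferon-stimulated genes is 4.03 in WT and 4.69 in Ikbke-/- cells and 0.0 in both Tbk1-/- genotypes. A pair with both arrays under the floor is drawn at 0. Of the 39 genes, 11 were under it on all 4 Tbk1-/- arrays and others in 1 of these pairs only, so 0.0 is no measured lack of response. The medians of the other 4 lists lie between -0.05 and 0.67 in every panel.

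Taking the brightest probe set of each gene, only that of Jak2 spanned 2-fold or more over the arrays on the floored scale, so likeness of pattern was read for it alone. Among 4166 genes that spanned 2-fold or more, the 5 with the highest Pearson correlation of log2 signal with Jak2 over the 8 arrays were Parp12 (0.997), Igtp (0.995), Gm20559 (0.993), Pnpt1 (0.993) and Tap1 (0.993). Tap1 is a subunit of the peptide transporter of antigen presentation, and Igtp is an interferon-induced GTPase. Their B-DNA over mock log2 ratios in WT and Ikbke-/- cells were 3.53 and 4.38 for Parp12, 5.45 and 5.70 for Igtp, 2.68 and 3.21 for Gm20559, 2.08 and 2.90 for Pnpt1, and 3.53 and 4.00 for Tap1, against 1.31 and 1.63 for Jak2. These correlations rest on 8 arrays of 4 genotypes and carry no p-value.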

How the data were processed

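Total RNA was measured on 8 one-colour Affymetrix arrays. Per the labels, the authors deposited 1 linear MAS5 intensity for each probe set. No source used here gives a scaling target or detection calls. Gene names come from the annotation whose probe set names matched, which is not of the array type named in the series' design text. Of 22690 probe sets, 64 controls were left out, 20380 had 1 gene symbol, 691 several and 1555 none.

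Each array was multiplied (by 1.96 to 3.58) to a 2% trimmed mean of 500, values under the 40th percentile (122) were set to it, and log2 was taken. The 16406 probe sets at the floor or above on 1 or more arrays were tested 2-sided with limma 3.58.1 (R 4.3.3) at a Benjamini-Hochberg adjusted p of 0.05. Genotype was a block throughout the main response fits. The average fit kept 3 residual degrees of freedom and the dependence fits kept 1, beside 5.53 prior degrees. The fits were also run on simulated data that held no leukocyte or sex difference between cultures. That run is no check of the values above. Precision is limited by the number of arrays.

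The members, gene lists and tests were chosen with earlier results of these data known. Named were every member probe set, up to 4 called genes per list, and the 5 genes most like a member that spanned 2-fold. The comparison of Il13ra1 with Jak2 and the values of Jak3, Irf3 and the uncalled Stat genes were added after their values were seen. Alternatives changed the scaling, floor, filter, variance trend, model and genotypes used. Promoter sequences came from RefSeq (GRCm38.p6), where all 6 genes matched.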

Additional observations from a re-analysis of the deposited data

How the results depend on the processing

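Mock and B-DNA arrays were paired within genotype in every response fit except the alternative with additive Tbk1 and Ikbke factors. No other block was fitted, as the labels give no replicate numbers. Of 372 fitted values of single probe sets under an alternative, 350 kept their direction and their side of the threshold, 20 changed sign and 2 passed the threshold. Of 350 ratios under an alternative, 309 moved by less than the spread between arrays and 41 by more. That spread is not one of replicate arrays, as there are none.

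Called for Tbk1 dependence were 270 probe sets, against 144 without further scaling, 177 scaled to the median, 96 with no floor, 0 with no filter on dim probe sets, 446 with a variance trend and 124 without the Ikbke interaction. Leaving out any 1 genotype gave 0 (lowest 0, highest 0). One member, Jak2 1421066_at, was called with the variance trend and 1 with only probe sets at the floor or above on all arrays. That last filter also called 17 probe sets for the mock level by Ikbke. With the floor at the 30th percentile 3 members, Ifnb1 among them, were past 2-fold in WT and in Ikbke-/- cells (2 in each with the floor at the 40th). Without further scaling 0 members were past 2-fold in WT cells, and 1, Jak1 1433804_at (-1.21, where the median of all probe sets moved to -0.55), was past it on the Tbk1-/- Ikbke-/- mock array.

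Signs changed in these cases. Without further scaling the average response of Jak1 1433805_at was -0.12. The Tbk1 dependence was then 0.18 for Ifnar1, 0.0038 for the bright Ifnar2 probe set, 0.24 for Jak1 1433804_at, 0.18 for Jak1 1433805_at and 0.25 for Tyk2. The mock level without Tbk1 was -0.087 for Tyk2, and that without Ikbke was -0.17 for Jak2 1421066_at. With no floor the Tbk1 dependence of the dim Ifnar2 probe set was 0.030. Its mock level without Ikbke was 0.0081 after quantile normalization and 0.028 over the mean of both arrays. With 1 genotype left out, the average response ran from -0.25 to 0.0019 for the bright Ifnar2 probe set, from -0.29 to 0.069 for Jak1 1433803_at and from -0.013 to 0.14 for Jak1 1433805_at. The Tbk1 dependence ran from -0.59 to 0.41 for Jak1 1433804_at, from -0.37 to 0.0855 for Jak1 1433805_at and from -0.18 to 0.027 for Tyk2. For the dim Ifnar2 probe set the Ikbke dependence ran from -0.19 to 0.69 and the mock level by Ikbke from -0.19 to 0.0001. The cause of these changes was not tested.

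With 1 array per combination, the error of the dependence fits comes from 1 residual degree of freedom and the spread of other probe sets. Ifnb1 and the dim Ifnar2 probe set lay at or near the floor, so the floor sets the size of their differences.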
